A study of Mus musculus with 2 samples.

Results

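The genes described here are targets and partners of the hypoxia-inducible factors (HIFs), measured in precancerous mouse liver with and without the histone demethylase gene Kdm3a. They are 10 genes chosen by name: Hif1a, Vegfa, Adm, Bnip3, Bnip3l, Ndrg1, Egln1, Egln3, Pdk1 and P4ha1. Every probe set that the platform annotation assigns to 1 of these genes and to no other was taken, which gave 24 of the 45037 probe sets on the array. Of the 10 genes, 9 had such a probe set, and all 9 had at least 1 probe set bright enough to be compared, among 11693 genes compared in all. Bnip3l was the exception, since each of its probe sets is annotated to a pseudogene as well.

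The knockout array held liver RNA of genotype Pik3caTg;Kdm3aKO, and the wild-type array held liver RNA of genotype Pik3caTg;Kdm3aWT. Both thus carried a transgene of Pik3ca, the catalytic subunit of phosphoinositide 3-kinase, which is driven in hepatocytes alone, so neither is normal liver. The mice ate a regular chow diet. The sources used here do not give their age, sex or number per array, the promoter of the transgene or the extent of the Kdm3a deletion. Each genotype was represented by 1 array, so the differences below lack replicates and could not be tested, and they hold for this pair of arrays rather than for the genotypes in general.

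Cells sense oxygen through the HIFs. In oxygen, prolyl hydroxylases of the EGLN family mark the HIF alpha subunits for destruction; when oxygen falls, the alpha subunit persists, pairs with ARNT and binds a short DNA element, the hypoxia response element. The genes it switches on bring in blood vessels, shift fuel use from respiration to glycolysis, clear mitochondria and modify collagen. In liver, oxygen falls along the blood's path from the portal tract to the central vein. Kdm3a, which removes methyl groups from lysine 9 of histone H3, is itself induced by hypoxia and is known as a co-activator of Adm.

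The core of the element is ACGTG or GCGTG, and both were sought on both strands of the 250 bases upstream of each gene start in RefSeq promoters of build GRCm38.p6. The palindrome CACGTG, the E-box read by other factors too, contains the core on each strand and counts as 2 matches. Promoters were available for 8 of the 10 genes, with 10 starts in all since Vegfa and Pdk1 have 2 each. Among these starts 8 held a core and 6 held more than 1. Both counts include the downstream start of Vegfa, whose 250 bases lie inside the gene, past its upstream start. Cores are common: 38.6% of all 32851 RefSeq promoters and 54.0% of the 12173 promoters of compared genes held at least 1. More than 1 match was found in 16.7% of all RefSeq promoters and in 26.2% of those of compared genes. The promoters of 4 genes are printed because they hold the lowest ratio of the set (Adm), the next lowest (Egln3) and the ratios above 0 of the genes that act on mitochondria (Pdk1, Bnip3). Capitals mark the cores, and each line runs to the base before the start on the gene's own strand.
Adm, chr7:110627407-110627656, plus strand: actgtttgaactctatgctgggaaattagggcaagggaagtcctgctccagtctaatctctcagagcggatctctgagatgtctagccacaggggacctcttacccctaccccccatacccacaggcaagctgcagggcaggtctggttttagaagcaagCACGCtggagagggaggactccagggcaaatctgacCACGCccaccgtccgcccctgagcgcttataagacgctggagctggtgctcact
Egln3, chr12:54203875-54204124, minus strand: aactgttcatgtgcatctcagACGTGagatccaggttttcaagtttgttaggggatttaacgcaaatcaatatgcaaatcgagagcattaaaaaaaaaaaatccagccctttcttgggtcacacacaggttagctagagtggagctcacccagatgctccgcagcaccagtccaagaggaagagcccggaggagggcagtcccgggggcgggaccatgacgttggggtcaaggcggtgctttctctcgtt
Pdk1, chr2:71872974-71873223, plus strand: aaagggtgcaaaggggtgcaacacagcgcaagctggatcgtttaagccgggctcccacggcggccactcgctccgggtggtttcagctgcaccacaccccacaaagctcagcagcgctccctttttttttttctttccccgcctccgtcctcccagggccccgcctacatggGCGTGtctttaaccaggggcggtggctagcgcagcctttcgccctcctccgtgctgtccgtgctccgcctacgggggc
Bnip3, chr7:138909507-138909756, minus strand: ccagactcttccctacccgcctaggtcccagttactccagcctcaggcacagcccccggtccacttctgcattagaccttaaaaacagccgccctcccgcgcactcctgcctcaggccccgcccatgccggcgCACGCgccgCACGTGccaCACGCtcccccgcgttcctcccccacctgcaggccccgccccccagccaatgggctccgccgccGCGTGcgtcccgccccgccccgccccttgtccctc
The Adm promoter held 2 cores, both on the opposite strand, with their first bases at -90 and -54 from the start. Egln3 held 1, far out at -229, and Pdk1 held 1 at -78. Bnip3 held 5 matches in 4 places, among them the palindrome at -108. Genes with a lower and with a higher signal in the knockout array thus both had cores. A match is a run of letters and not a measured binding site.

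**Figure D1:**
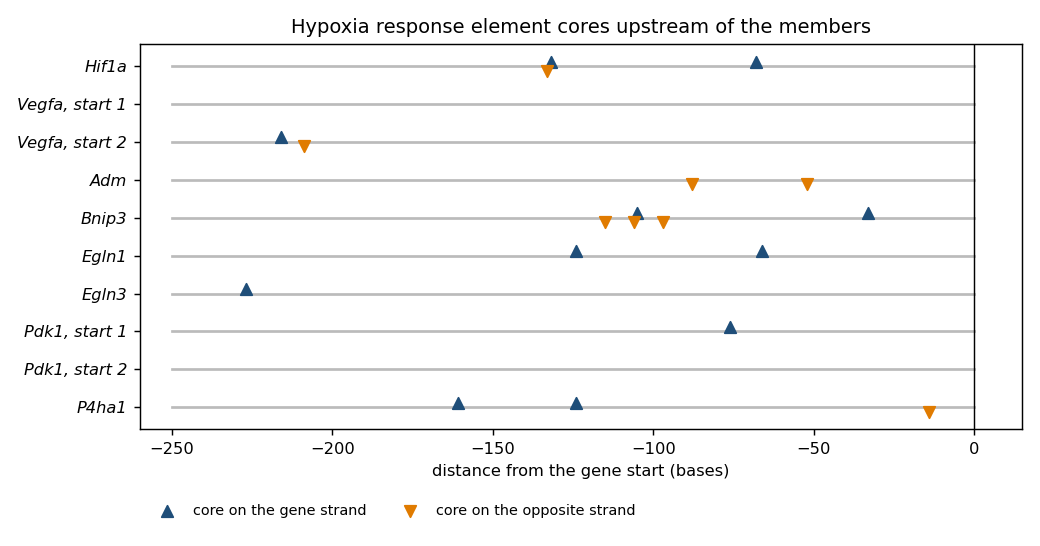
Positions of the cores ACGTG and GCGTG in the 250 bases upstream of each gene start, in bases from the start (horizontal axis), for the 8 genes with a promoter in the table. Upward triangles mark cores on the gene's strand and downward triangles cores on the opposite strand. Bnip3 has the most, 5, while the upstream start of Vegfa and the downstream start of Pdk1 have none. The cores shown for Vegfa thus belong to its downstream start alone. The 250 bases of that start lie inside the gene, past the upstream start, so they are not upstream of the whole gene.

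Kdm3a, the gene removed, had 1 probe set, with a signal of 61.6 in the knockout array and 719.9 in the wild-type array. The knockout reading was 8.56% of the wild-type one. It lay below the median signal of that array, 76.2, so remaining transcript cannot be told from background. Whether that probe set lies in the deleted part is not known here. The brightest Pik3ca probe set read 1107 in the knockout array and 1068.5 in the wild-type array, and the 4 other kept ones had log2 ratios from -0.54 to -0.14. Whether any of them reads the transgene is not known either. Across the 11693 genes, 3.83% (448) passed 2-fold on the higher side in the knockout array and 8.96% (1048) on the lower side. The lower side held 70.1% of these, and it held 53.7% after scaling on poly-A controls and 80.5% after scaling on hybridisation controls. The 18S ribosomal RNA probe sets were 1.74-fold to 1.89-fold higher in the knockout array, and the ratio of 3' to 5' actin signal was 1.99 in the knockout array and 1.85 in the wild-type array. For Gapdh the same ratio went the other way, 0.65 in the knockout array and 0.70 in the wild-type array. Liver identity was clear on both: the 10 measured hepatocyte markers summed to a signal of 504682 in the knockout array and 365854 in the wild-type array. Among them, 2 passed 2-fold on the higher side (1 to 3 under other scalings) and 0 on the lower, from Ahsg (0.18 on the log2 scale) to Tat (1.22). All 10 lay above 0 as deposited, with a median of 0.40, but 3 lay below 0 after loess (median 0.12) and 2 after quantile normalization (median 0.09). In bulk tissue, fewer cells of a type and less RNA per cell cannot be told apart.

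The HIF target genes went both ways, and most lay within 2-fold. By each gene's brightest probe set, 6 of the 9 measured genes had a lower signal in the knockout array (Adm, Egln3, Hif1a, Ndrg1, P4ha1 and Egln1) and 3 a higher one (Vegfa, Bnip3 and Pdk1). Among all 11693 genes, 6101 had a ratio below 0 and 5592 a ratio above 0. A single gene passed 2-fold, Adm, on the lower side, and 0 passed it on the higher side. That is 1 of 9 genes beside a background of 8.96% of all genes lower, and 0 of 9 beside 3.83% higher, both near the background. The median log2 ratio of knockout over wild type was -0.39 over the 9 genes and -0.02 over all genes.

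**Figure D2:**
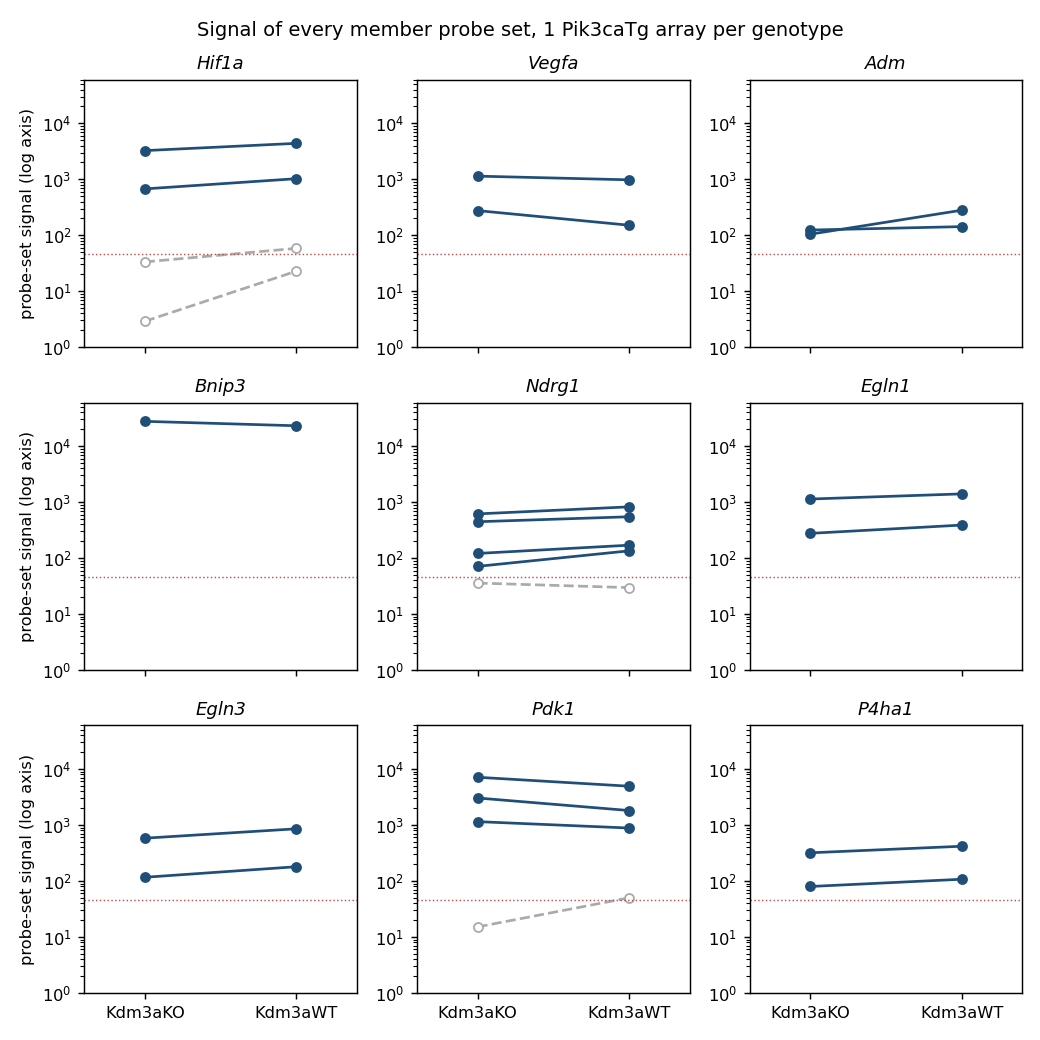
Signal (vertical log axis, arbitrary units) of each of the 24 probe sets of the 9 genes on the knockout array (left) and the wild-type array (right), a line joining the values of a probe set. Solid lines are the 20 probe sets that passed the signal filter, dashed grey lines the 4 that did not, and the dotted line is the floor of 46.5; the lines of Vegfa, Bnip3 and the kept sets of Pdk1 slope down to the right, the kept sets of the other genes up.

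Adrenomedullin, the secreted peptide encoded by Adm that widens vessels, had the lowest ratio of the set. Its brighter probe set read 104.4 in the knockout array and 280.1 in the wild-type array. That is 2.68-fold lower, a log2 ratio of -1.42, and 4.53% of all genes had a lower one. The other probe set, of a type whose probes can also match other transcripts, read 123.8 in the knockout array and 142.5 in the wild-type array, a log2 ratio of -0.20. The probe sets of Adm thus differed by 1.22 in log2 ratio, where the SD between probe sets of the same gene was 0.446 over 4958 genes with several. With both averaged, the ratio was -0.81 and Adm too lay within 2-fold. Adm's signal was modest, in the second-lowest of 5 equal bands of genes by signal. In that band 12.2% of genes passed 2-fold on the lower side and 3.04% on the higher side.

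The other angiogenic ligand went the other way. Vegfa, the vascular endothelial growth factor, read 1137 in the knockout array and 977 in the wild-type array on its brightest probe set, a log2 ratio of 0.22. Its dimmer probe set read 275.3 in the knockout array and 151.0 in the wild-type array, a log2 ratio of 0.87. Both were higher in the knockout array and neither reached 2-fold. Of the 12 measured ligands and receptors of the VEGF and adrenomedullin systems, 0 passed 2-fold and 11 had a ratio below 0 (6 under poly-A scaling), with a median of -0.18. The lymphatic growth factor Vegfc was lowest (-0.67, with its 3 probe sets between -1.56 and -0.67) and Nrp2, a co-receptor, next (-0.38). The highest were Calcrl (0.01), the receptor that binds adrenomedullin together with a RAMP protein, and Ramp1 (-0.02). Of the other RAMP proteins, Ramp2 stood at -0.35 and Ramp3 at -0.11. Endothelial cells carry most of these receptors. Of 11 measured endothelial markers, Vwf (-1.20) alone passed 2-fold, with Ehd3 highest (0.59). Their summed signal was 9126 in the knockout array and 9691 in the wild-type array, none was below the floor, and their part in the Adm and Vegfa values was not tested.

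The measured genes of the oxygen-sensing machinery itself all lay within 2-fold. Hif1a, the alpha subunit of HIF-1, read 3250 in the knockout array and 4382 in the wild-type array, a log2 ratio of -0.43. A second kept probe set of Hif1a read 672.8 in the knockout array and 1024 in the wild-type array (-0.61), and the 2 dim ones read 33.4 and 2.9 in the knockout array and 58.3 and 22.8 in the wild-type array. Both kept probe sets were lower in the knockout array; the dim ones each had a reading below the floor of 46.5 and are given no direction. The protein of Hif1a is controlled mainly by destruction, which an array does not measure.

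Of the prolyl hydroxylases, Egln1 (also PHD2) is the main brake on HIF, and Egln3 (also PHD3) is itself strongly induced by it. Egln3 read 581.2 in the knockout array and 855.0 in the wild-type array, a log2 ratio of -0.56, and its dimmer probe set stood at -0.63. Egln1 read 1136 in the knockout array and 1404 in the wild-type array (-0.31), and its dimmer probe set stood at -0.49. Both hydroxylases were therefore lower in the knockout array on both of their probe sets, by less than 2-fold. Among all genes, 18.4% had a lower ratio than Egln3 and 29.1% a lower one than Egln1. The third family member, Egln2, had a log2 ratio of 0.10.

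Of 10 measured HIF subunits and regulators outside the set, 0 passed 2-fold in either direction and 5 lay on each side of 0, with a median of 0.03; under other scalings between 3 and 8 lay above 0. Epas1, the alpha subunit of HIF-2, was highest, at 13748 in the knockout array and 10142 in the wild-type array (0.44). Vhl, which recognises the hydroxylated alpha subunit, followed (0.40), though its 2 probe sets ran from -0.05 to 0.40. Lowest were the chaperone Hsp90aa1 (-0.74) and Hif3a (-0.54), whose 2 probe sets stood on opposite sides of 0. Arnt, the shared partner, stood at -0.02, with its 4 probe sets between -0.35 and 0.43. The 2 main alpha subunits, Hif1a and Epas1, thus had ratios of opposite sign, each about as large as the SD between probe sets of a gene.

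Pdk1, the kinase that switches off pyruvate dehydrogenase and so keeps pyruvate out of the citric acid cycle, had the highest ratio of the set. It read 7128 in the knockout array and 4932 in the wild-type array, 1.45-fold higher, or 0.53 on the log2 scale. The next brightest probe sets read 3037 and 1148 in the knockout array and 1814 and 882.4 in the wild-type array, with log2 ratios of 0.74 and 0.38. Another, too dim to be kept, read 15.1 in the knockout array and 50.1 in the wild-type array. By the brightest probe set, 87.1% of all genes had a lower ratio than Pdk1.

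The related kinases did not share one pattern. Pdk2, the widely expressed liver form, stood at 0.57, close to Pdk1. Pdk4, the form induced by fasting and fatty acids, read 323.0 in the knockout array and 2155 in the wild-type array, 6.67-fold lower. Pdk3 was below the signal filter. Of the 11 measured genes of pyruvate dehydrogenase, its kinases and phosphatases and the pyruvate carrier, Pdk4 and the phosphatase subunit Pdp1 (-1.19, with its second probe set at -0.39) passed 2-fold, both on the lower side. The remaining 9 lay within 2-fold, Pdhb at -0.03 and the other 8 between 0.14 and 0.57, with Pdk2 and the complex's Pdhx (0.52) highest. The list's median was 0.23.

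Bnip3 is a receptor on the outer mitochondrial membrane that marks mitochondria for autophagy. It read 27749 in the knockout array and 23140 in the wild-type array, a log2 ratio of 0.26, from 1 probe set. Its paralogue Bnip3l, also called Nix, could not be read alone. The 3 probe sets annotated to Bnip3l and its pseudogene together read 5144, 3577 and 1319 in the knockout array and 4776, 3271 and 1265.5 in the wild-type array. Their log2 ratios were 0.11, 0.13 and 0.06, so the joint signal was 1.04-fold to 1.09-fold higher in the knockout array; it stands outside all counts. These differences are no larger than the mean shift of the hybridisation controls (0.13 on the log2 scale), so they carry no direction. Of 12 measured mitophagy genes outside the set, 0 passed 2-fold and 6 lay on each side of 0 (9 above it under poly-A scaling), with a median of 0.04. Lowest were the cargo adaptor Sqstm1 (-0.83, but 0.23 on its second probe set) and Map1lc3a (-0.69), an LC3 protein of the autophagosome. Highest were the prohibitin Phb2 (0.38) and the LC3 protein Map1lc3b (0.28, with its 3 probe sets between -0.20 and 0.28). Fundc1, another hypoxia-linked mitophagy receptor, stood at -0.44, with its 3 probe sets between -0.47 and 0.02.

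Ndrg1, a cytoplasmic stress protein widely used as a marker of hypoxic tissue, was lower in the knockout array on all 4 kept probe sets. They read 616.1, 446.4, 121.1 and 71.2 in the knockout array and 823.3, 547.7, 170.1 and 134.8 in the wild-type array. The log2 ratio of the brightest was -0.42, and the others ran from -0.92 to -0.30. The brightest and the next brightest are of types whose probes can also match other transcripts. Without probe sets of such types the log2 ratio of Ndrg1 was -0.49. One further probe set was below the floor on both arrays. Of its relatives, Ndrg2, abundant in hepatocytes and not a classical hypoxia gene, read 26122 in the knockout array and 14647 in the wild-type array (0.83), and Ndrg3 stood at -0.08, with a second probe set at 1.36. Ndrg4 was below the signal filter.

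P4ha1, a catalytic subunit of collagen prolyl 4-hydroxylase, read 318.8 in the knockout array and 417.3 in the wild-type array, a log2 ratio of -0.39. Its dimmer probe set read 79.7 in the knockout array and 107.4 in the wild-type array (-0.43). Its partner subunit P4hb stood at -0.01 and its sister P4ha2 at -0.13, so these 3 genes all lay well within 2-fold. The wider list of collagen enzymes and chaperones, which includes P4hb and P4ha2, held some larger differences. Of its 11 measured genes, 5 passed 2-fold on the lower side, 0 on the higher side, and 11 had a ratio below 0, with a median of -0.82; under poly-A scaling 4 passed it and 8 lay below 0. The crosslinking oxidases Lox and Loxl1 were at least 4.28-fold and at least 4.26-fold lower, since both were below the floor in the knockout array on their brightest probe sets; the second probe set of Lox stood at -0.83, within 2-fold. The collagen chaperone Serpinh1 stood at -1.62, and Crtap and P3h1, which form the prolyl 3-hydroxylase complex, at -1.28 and -1.13, with a second probe set of P3h1 at -0.70. Markers of matrix-producing cells moved with this list: 8 of 12 markers of stellate cells and fibroblasts passed 2-fold on the lower side and 0 on the higher, with Col3a1 lowest (-3.56) and Reln highest (0.03). Their summed signal was 20489 in the knockout array and 42439 in the wild-type array, none was below the floor, and their part in the P4ha1 value was not tested.

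**Figure D3:**
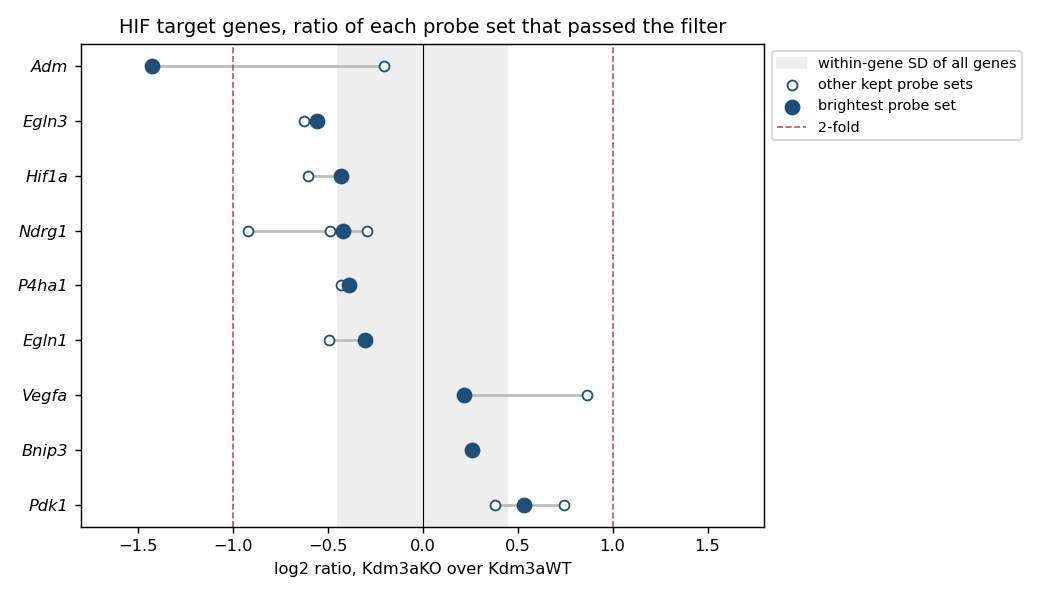
Log2 ratio of knockout over wild type (horizontal axis) for each of the 20 kept probe sets of the 9 genes, ordered by the brightest probe set. Filled points are the brightest probe set, open points the others, the grey band is the SD between probe sets of a gene (0.446 on either side of 0) and dashed lines mark 2-fold; Adm alone crosses a dashed line, with 1 of its 2 probe sets.

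Probe sets of the same gene went the same way in this set. All 8 genes with several kept probe sets had every one of them on the same side of 0, whereas 57.4% of all 4958 genes with several did. The genes were not matched for signal, number of probe sets or distance of the ratio from 0, so these shares are not comparable measures of precision. By the brightest probe set, 3 of the 9 ratios (Adm, Egln3 and Pdk1) were larger than the SD between probe sets. The share of all genes beyond that SD was not computed, so these 3 are not set apart from other genes. At 1.5-fold, a larger size than that SD, 1296 of all 11693 genes were higher and 2038 lower. Of the 9 genes, 0 were higher and 1 lower at that size. Probe sets share the RNA of 1 array, so agreement between them covers measurement within an array and not differences between mice.

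Further genes known to respond to HIF also lay on both sides of 0. Of 21 measured genes outside the glycolytic pathway, 0 passed 2-fold, 12 lay above 0 and 9 below, with a median of 0.02. Under other scalings 9 to 13 lay above 0, and 1 gene passed 2-fold on the lower side when the arrays were centred on their medians, after loess or with hybridisation controls. Highest were the mitochondrial protein Higd1a (0.67, with its 3 probe sets between -0.67 and 0.67) and the endothelin gene Edn1 (0.62). Lowest were Tmem45a (-0.95) and the transferrin receptor Tfrc (-0.75).

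The glycolytic genes contained larger differences than the HIF-responsive genes outside that pathway. Of 14 measured, 4 passed 2-fold on the lower side and 0 on the higher, beside 8.96% and 3.83% of all genes. Their median was -0.42. The lower ones were the pyruvate kinase Pkm (-1.70), the phosphofructokinase Pfkp (-1.59), the hexokinase Hk2 (-1.56) and Pfkfb4 (-1.41), which makes an activator of phosphofructokinase. Aldoc, an aldolase, was highest (0.91) and passed 2-fold under poly-A scaling. Hk2 read 345.1 in the knockout array and 1016 in the wild-type array. The glucose transporter Slc2a1 stood at 0.17, the highest of its 3 probe sets, with the lowest at -0.535. Pgk1 stood at 0.10 (with another probe set at -1.15) and Ldha at -0.13. Pkm, Pfkp and Hk2 are not the main isozymes of adult hepatocytes. Markers of bile duct cells were lower alongside these genes, and macrophage markers went both ways. Of 8 cholangiocyte markers, 7 were at least 2-fold lower and 0 higher by their brightest probe sets, from Cd24a (-3.40) to Krt23 (0.04). Among the 7, Tspan8 and Epcam also had a probe set within 2-fold, at 0.69 and -0.08. The cholangiocyte sum was 1112 in the knockout array and 6334 in the wild-type array. Of 14 macrophage markers, 5 were at least 2-fold lower and 3 higher, from Gpnmb (-4.12) to Cd163 (at least 23.9-fold higher). The macrophage sum was 34845 in the knockout array and 47442 in the wild-type array, and Cd163, Marco and Timd4 did not reach the floor in the wild-type array. Of 4 neutrophil markers, 3 had a ratio below 0 and 2 of them passed 2-fold, with S100a9 lowest (-2.18) and Csf3r highest (0.52), and a sum of 930.5 in the knockout array and 2345 in the wild-type array. The 2 measured erythroid markers, Alas2 (-0.22) and Slc4a1 (-0.17), lay within 2-fold, with sums of 395.1 in the knockout array and 456.9 in the wild-type array. The part of these cell types in the glycolytic values was not tested.

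**Figure D4:**
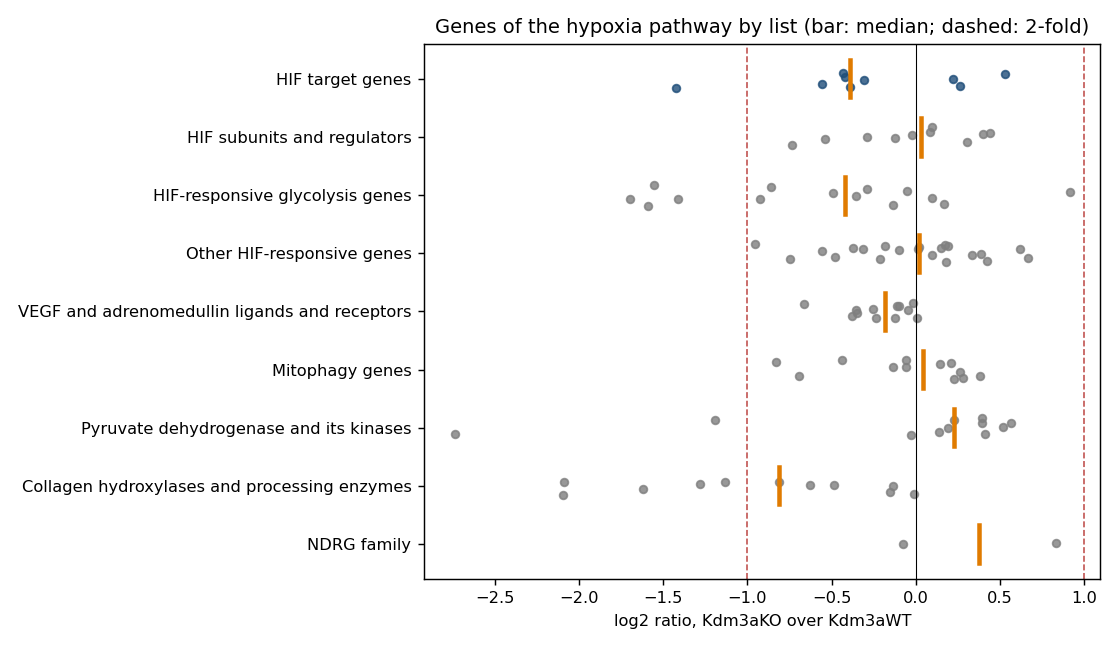
Log2 ratio of knockout over wild type (horizontal axis) of each measured gene in the 9 HIF target genes and in the 8 other lists, with an orange bar at each median and dashed lines at 2-fold; vertical scatter within a row carries no value. Genes beyond 2-fold on the lower side lie in the glycolysis, pyruvate dehydrogenase and collagen lists, besides Adm, and no gene of any list lies beyond 2-fold on the higher side in these values as deposited.

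Across the 8 lists, 11 of 93 measured genes were at least 2-fold lower and 0 were at least 2-fold higher (2 under poly-A scaling, Aldoc and Ndrg2), beside backgrounds of 8.96% and 3.83%. The direction of each HIF target gene was the same as deposited under each of the 5 other scalings. The ratio of Adm was -1.55 with hybridisation controls as the yardstick and -1.25 with poly-A controls. Bnip3 came nearest to 0, at 0.03 after quantile normalization, and Egln1 stood at -0.14 under poly-A scaling, so their directions rest on small differences.

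**Figure D5:**
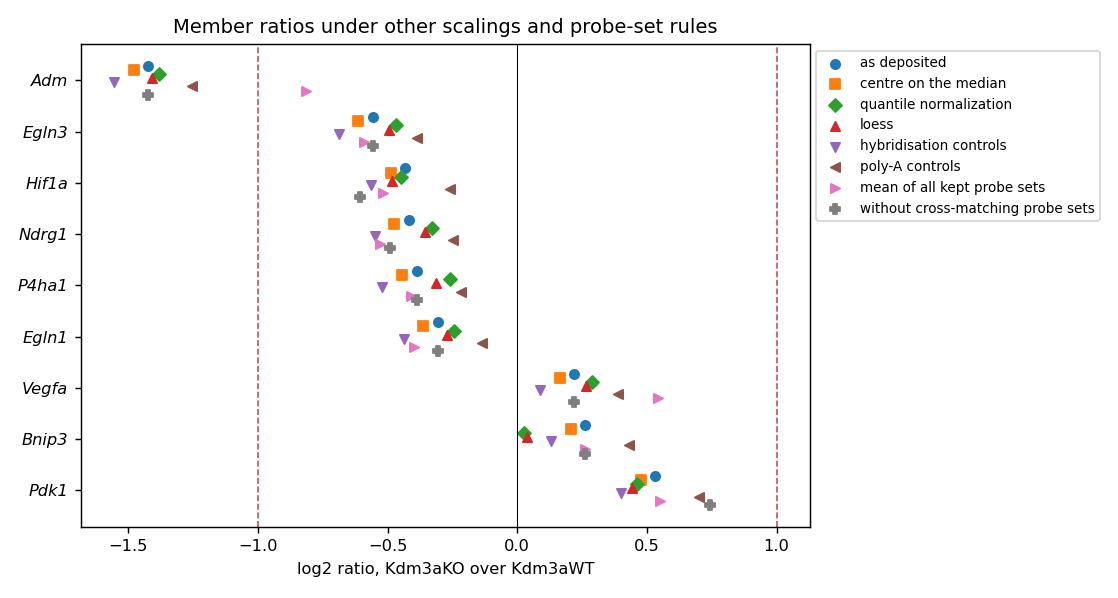
Log2 ratio of knockout over wild type (horizontal axis) of the 9 genes as deposited, under 5 other scalings and under 2 other rules for combining probe sets, with dashed lines at 2-fold. Each gene keeps its side of 0 under all 8 settings shown, and Adm lies beyond 2-fold in all but the mean of its probe sets (-0.81).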

How the data were processed

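Liver RNA of 1 Pik3caTg;Kdm3aKO and 1 Pik3caTg;Kdm3aWT sample was compared on Affymetrix arrays. Per the labels' protocols, 250 ng of total RNA was made into biotinylated cRNA. The authors deposited 1 linear intensity per probe set, made with MAS5 per the submitters' processing notes; the sources used here give neither its settings nor detection calls. Both arrays had the same trimmed mean (500.004, with 2% cut from either end), so the values were scaled before deposit.

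Genes were named through the platform annotation, with symbols updated through RefSeq gene identifiers: 34945 probe sets named 1 gene, of which 34741 were found there. Values below 46.5 (the 40th percentile of all values) were raised to that floor. Probe sets with a mean signal of at least 73.7, the median, were kept, and each gene took its brightest one. Knockout over wild type was expressed as a log2 ratio, with a size rule of 2-fold and no test. Ratios against a floored value are bounds. Of the 24 member probe sets, 20 passed.

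The 8 pathway lists and 7 marker lists came from general knowledge. The members and lists were chosen with earlier results of these data known. Named were all members, Kdm3a, Pik3ca, the genes of each pathway list past 2-fold (with fewer than 4, also its 2 highest and 2 lowest) and the extremes of each marker list. Egln2, Arnt, Ramp2, Ramp3, Fundc1, P4ha2, P4hb, Aldoc, Slc2a1, Pgk1, Ldha, Pdhb, Marco, Timd4, Tspan8 and Epcam were added after their values were seen. Alternatives were 5 scalings (array medians, quantile, loess with a span of 0.3, hybridisation and poly-A controls), other filters, floors and size rules, the mean of probe sets, and leaving out probe sets ending in _s_at, _x_at, _a_at or _f_at. The script was tested on simulated data. Python 3.11.15, pandas 2.3.3 and statsmodels 0.14.6 were used.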

Additional observations from a re-analysis of the deposited data

How the results depend on the processing

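No paired analysis was possible because each genotype had 1 array. The 9 HIF target genes kept their direction under all 12 alternatives that changed the scaling, filter, floor or probe-set rule, wherever they were measured. Adm, the single gene past 2-fold, fell out of the count in 3 of the 14 alternatives. The lower count was 0 with the mean of all kept probe sets (Adm at -0.81), 0 with a filter at the 70th percentile, which removed Adm and left 8 genes, and 0 at a size rule of 3-fold. The median of the 9 genes moved by less than the SD between probe sets throughout. For all genes, the higher count was 685 under poly-A scaling, 250 with the floor at the 60th percentile, and 210 beside 564 lower with the filter at the 70th percentile. At 1.5-fold, 1296 were higher and 2038 lower, and at 3-fold, 102 and 409. For the genes of the 8 pathway lists, 2 were higher under poly-A scaling, 7 were lower with the floor at the 60th percentile and 5 with the filter at the 70th. They numbered 4 higher and 21 lower at 1.5-fold, and 6 lower at 3-fold. The all-gene median was 0.15 under poly-A scaling and -0.16 under hybridisation scaling, against -0.02 as deposited. Without cross-matching probe sets, the glycolytic median was -0.98 over 8 genes. With 1 array per genotype, the number of arrays limits the precision, and dim probe sets such as those of Adm carry the least signal over background.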
